A study of Mus musculus with 12 samples.

Results

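The autophagy machinery was measured here as 34 genes chosen by name, which build, extend and load the autophagosome. They comprise 5 genes of the initiating ULK complex, 5 of the nucleating lipid kinase complex, 5 that shape or supply the membrane, 8 of the conjugation systems, 5 ATG8 family genes, 5 cargo receptors and the transcription factor Foxo3. All 34 were among the 54532 genes of the deposited table, and all 34 were among the 14014 genes that passed a filter of 1 FPKM (fragments per kilobase of gene, scaled to library size) in at least 2 of the 12 libraries. RNA was sequenced from cultures grown in astrocyte medium from enzymatically dissociated cortex and hippocampus of adult C57BL/6 mice, in 6 groups of 2 libraries forming 3 experiments. In the first, the Ogt cKO and the cKO control both carried the genotype label Glast-CreERT2::Ogtfloxp/Y at 4 months of age, and the sample descriptions alone told them apart. Glast drives the inducible Cre in astrocytes and their relatives, and the labels used here mention no inducer. In the second, the AD model carried a 5X APP Alzheimer transgene label and the AD control was wild type, both 6 months old per the sample labels and 5 months per the series text. In the third, wild-type cultures from 2-month-old mice received 20 µM amyloid beta 1-42 for 72 hours (73 hours on the label of 1 library), and the Aβ control was wild type of the same age. Separate animals or cultures are not named for the 2 libraries of any group, so p-values measure only the spread between libraries of a group, which may be technical. For each gene that spread was pooled over the 6 groups, so replicates of 1 experiment also set the error of the others.

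Autophagy encloses cytoplasm in a membrane that closes into an autophagosome and fuses with a lysosome. The ULK kinase complex starts the process when nutrients run low, a lipid kinase complex around Vps34 marks the growing membrane, and a pair of ubiquitin-like conjugation systems attach ATG8 proteins to it. Cargo receptors bind both an ATG8 protein and the material to be removed, such as ubiquitinated aggregates or mitochondria, and FOXO factors are known to raise transcription of several of these genes. O-GlcNAc transferase, the product of Ogt, adds a single sugar to serine and threonine residues of many proteins.

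Each library held 16418852 to 18705309 reads recovered from FPKM and gene length. Ogt itself, the gene targeted in the first experiment, stood at 11.04 and 12.03 FPKM in the Ogt cKO, against 20.8 and 24.7 FPKM in the cKO control (log2 change -0.92 ± 0.30, adjusted p = 0.038). That call was lost on leaving out any 1 of the 4 libraries (adjusted p 0.085 to 0.17), and Ogt was lower still in the wild-type Aβ control, at 7.85 and 10.4 FPKM. The labelled cell type was checked against 13 astrocyte markers: their summed level was 184 to 919 FPKM over the 12 libraries, and 15 microglia markers summed to 1195 to 9396 FPKM. The astrocyte marker Gjb6 was at 0 in the AD model and the Aβ control, and of the neuronal markers Snap25 was at 0 in the Ogt cKO and the cKO control and Rbfox3 in the Ogt cKO. Each library thus held RNA with markers of several cell types, and in such bulk RNA fewer cells of a type and less RNA per cell cannot be told apart.

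Averaged over the 12 libraries, the receptor Sqstm1 (p62, which carries ubiquitinated cargo) was the highest at 229.8 FPKM, followed by the ATG8 genes Gabarap at 183 FPKM and Map1lc3a at 88.0 FPKM. Rb1cc1, encoding the ULK scaffold FIP200, was the lowest at 2.10 FPKM, below Atg2b at 3.36 FPKM. In the deposited mm10 coordinates Sqstm1 (ENSMUSG00000015837) lies at chr11:50199366-50210827 on the minus strand, Map1lc3a (ENSMUSG00000027602) at chr2:155276297-155278073 on the plus strand and Rb1cc1 (ENSMUSG00000025907) at chr1:6206197-6276648 on the plus strand, and values are for whole genes. Rb1cc1 also varied the most, 9.31-fold between its lowest and highest library. Of the 34 genes, 17 changed in none of the 3 experiments, 13 in 1 of them, 2 (Map1lc3a and Bnip3l) in 2, and 2 (Rb1cc1 and Wipi1) in all 3. A change here means a Benjamini-Hochberg adjusted p under 0.05 over all 14014 genes, from limma on log2(FPKM + 1). By that rule 42.3% of all genes changed in the Ogt cKO, 17.1% in the AD model and 35.9% with Aβ. How many of all genes changed in several experiments was not counted. Log2 changes are on that scale, which understates the change of low genes, and the error given after ± is the standard error. It comes from the pooled spread, so for each gene it is the same in all 3 experiments.

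Promoters were read for genes with a RefSeq entry to show the DNA around a RefSeq start of members that moved (RefSeq, build GRCm38.p6, from 250 bases before to 50 bases after that start). Entries were found for 27 of the 34 genes. The letters CACGTG, the E-box at the centre of the CLEAR element bound by TFEB, occurred in 5 of those 27 genes (Atg7, Bnip3, Atg5, Atg14 and Atg3) and in 7.15% of all 32851 promoters. Here and for the letters below, a gene counted if any of its promoters matched (29 promoters for the 27 genes). Gene and promoter shares thus differ in unit and are not a test of enrichment. The 3 shown are those of the 5 whose gene changed in at least 1 experiment: Atg7 at chr6:114670846-114671145 on the plus strand, Bnip3 at chr7:138909457-138909756 on the minus strand and Atg14 at chr14:47568385-47568684 on the minus strand. Each is written 5′ to 3′ on the gene's own strand with CACGTG in capitals, which begins 132, 108 and 1 bases before the RefSeq start in that order.
Atg7: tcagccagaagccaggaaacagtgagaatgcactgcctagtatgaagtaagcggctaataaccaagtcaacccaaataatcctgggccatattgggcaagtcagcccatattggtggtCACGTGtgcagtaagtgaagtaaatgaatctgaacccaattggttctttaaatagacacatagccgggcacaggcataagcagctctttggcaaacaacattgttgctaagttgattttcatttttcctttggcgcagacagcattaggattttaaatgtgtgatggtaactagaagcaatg
Bnip3: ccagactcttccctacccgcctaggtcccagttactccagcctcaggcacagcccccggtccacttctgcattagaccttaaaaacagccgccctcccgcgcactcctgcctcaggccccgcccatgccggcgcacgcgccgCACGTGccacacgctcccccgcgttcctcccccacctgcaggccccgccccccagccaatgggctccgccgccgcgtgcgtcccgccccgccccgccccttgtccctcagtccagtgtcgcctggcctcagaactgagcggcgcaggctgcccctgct
Atg14: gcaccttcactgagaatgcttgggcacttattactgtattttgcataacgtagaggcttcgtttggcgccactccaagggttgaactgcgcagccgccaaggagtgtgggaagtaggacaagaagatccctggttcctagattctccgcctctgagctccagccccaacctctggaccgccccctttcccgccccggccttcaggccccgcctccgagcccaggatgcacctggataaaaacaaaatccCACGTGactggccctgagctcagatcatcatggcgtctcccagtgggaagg
Searched on both strands, the core hypoxia response letters ACGTG, which CACGTG contains, were in 13 of the 27 genes and 19.6% of all promoters. The antioxidant response letters TGACNNNGC were in 3 of 27 (Atg13, Map1lc3b and Ulk2) and 12.4%, and the FOXO letters GTAAACA were in 0 of 27 and 3.65%. The RefSeq starts of all 3 genes shown differ from the deposited gene starts, at chr6:114643097 for Atg7, chr7:138909519 for Bnip3 and chr14:47570649 for Atg14. The stretches shown for Atg7 and Atg14 thus lie wholly inside the deposited genes, and that of Bnip3 spans its deposited start. Which start these cultures used was not tested. The 3 genes shown moved in different experiments: Atg7 and Atg14 fell in the Ogt cKO and Bnip3 rose with Aβ. A match describes these letters and is not evidence of binding.

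In the Ogt cKO, 12 autophagy genes fell and 1, Wipi1, rose relative to the cKO control. The 12 comprised Ulk1, Ulk2, Atg13 and Rb1cc1 of the ULK complex, Pik3c3, Atg14 and Ambra1 of the nucleation complex, the conjugation enzyme gene Atg7, the ATG8 gene Gabarapl1, the receptors Nbr1 and Bnip3l, and Foxo3. That is 35.3% lower and 2.94% higher, whereas 19.8% of all genes tested were called lower and 22.6% higher. Counting both directions, the 38.2% called among the autophagy genes lay near the 42.3% of all genes. The median log2 change was -0.25 over the 34 genes and -0.00 over all 14014. In 23 of the 34 both Ogt cKO libraries lay below both control libraries and in 6 both lay above, against 42.2% and 41.6% of all genes (83.9% in either direction). When FPKM was rescaled to total reads, the median of all genes moved to -0.19 and that of the autophagy genes to -0.48. The split was then 0 higher and 16 lower among the 34, and 2216 higher and 4022 lower among all genes, against 3165 and 2769 without rescaling. Leaving out 1 library at a time left 2 autophagy genes called without Ogt cKO library 1 or 2, 4 without cKO control library 1 and 1 without cKO control library 2. Nbr1 was the only gene called in each of those 4 fits. Among all genes, too, far fewer were called in each of them than with every library.

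Cell type markers moved in the same comparison. In the Ogt cKO relative to the cKO control, 9 of 12 tested astrocyte markers were lower and 0 higher, with summed levels of 184 to 198 FPKM in the Ogt cKO, against 761 to 919 FPKM in the cKO control. Microglia markers were lower in 7 of 15 and higher in 0 (3171 to 4238 FPKM in the Ogt cKO, against 7429 to 9396 FPKM in the control). Mural cell markers were higher in 6 of 9 (4692 to 4814 FPKM in the Ogt cKO, against 525 to 1058 FPKM in the control). Endothelial markers were higher in 8 of 10 (275 to 287 FPKM in the Ogt cKO, against 43.3 to 53.5 FPKM in the control), and oligodendrocyte markers lower in 7 of 10 (44.8 to 48.2 FPKM in the Ogt cKO, against 199 to 401 FPKM in the control). Fibroblast markers were higher in 1 of 8 and lower in 0 (2145 to 2150.5 FPKM in the Ogt cKO, against 1231 to 1352 FPKM in the control). Neuron markers were higher in 1 and lower in 2 of 5 tested (98.7 to 124 FPKM in the Ogt cKO, against 117 to 192 FPKM in the control). Their part in the autophagy gene changes was not tested.

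In the AD model, 3 of the 34 genes fell and 0 rose: the ATG8 gene Map1lc3a, the scaffold gene Rb1cc1 and Wipi1. The 8.82% called lower compared with 7.27% of all genes, and the 0% called higher with 9.8%, and 17.1% of all genes were called in either direction, so the count of falls was near the background. The autophagy median was -0.09 and that of all genes -0.02. Without overlap between groups, 5 genes were higher and 4 lower in the AD model, against 21.8% and 23% of all genes (44.8% in either direction). At an unadjusted p under 0.05, 5 of the 34 passed, and the read-based voom fit called 3 lower and 0 higher. Rescaling to total reads gave 1 higher and 3 lower, and 1430 higher and 927 lower among all genes. Leaving out 1 library moved the count to 2 (without AD model library 2) to 5 (without AD model library 1), with genes gained as well as lost. Atg2a, Optn and Sqstm1 were called higher without AD model library 1, Bnip3 and Optn without AD control library 2, and Foxo3 and Map1lc3b lower without AD control library 1. Among all genes the number called changed little in those fits. With the 4 libraries of this experiment alone, 0 were called, and 278 of all 14014 genes. A replicate block, a term for the library number within each experiment, gave 1 higher and 4 lower, with Map1lc3b and Optn gained. Among all genes the block gave 1652 higher and 1406 lower. Among markers, 11 of 15 for microglia were higher (3731 to 6034 FPKM in the AD model, against 1195 to 1739 FPKM in the AD control). Mural markers were lower in 7 of 9 (214 to 799 FPKM in the AD model, against 1798 to 4316 FPKM in the control), fibroblast markers lower in 4 of 8 (619 to 1261 FPKM in the model, against 1495 to 2781 FPKM in the control) and astrocyte markers lower in 4 of 12 (385 to 423 FPKM in the model, against 561 to 781 FPKM in the control). Oligodendrocyte markers were higher in 6 and lower in 2 of 10 (417 to 492 FPKM in the model, against 251 to 258 FPKM in the control). Endothelial markers were called in 0 of 10, with 1 at an unadjusted p under 0.05 (118 to 433 FPKM in the model, against 89.0 to 221 FPKM in the control), and neuron markers lower in 1 of 5 (66.4 to 85.7 FPKM in the model, against 90.5 to 150.2 FPKM in the control). Their part in these results was not tested.

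In the Aβ-treated cultures, 4 autophagy genes rose and 3 fell relative to the Aβ control. Rb1cc1 rose, as did the receptors Sqstm1, Bnip3 and Bnip3l. Map1lc3a, Wipi1 and the ATG8-processing protease gene Atg4b fell. The shares were 11.8% higher and 8.82% lower, against 20.8% and 15.1% of all genes (20.6% against 35.9% in either direction), so the members' share was below that of all genes. The median log2 change was 0.12 over the 34 and -0.04 over all genes, and 14 genes were higher and 8 lower without overlap, against 36.6% and 40.2% of all genes (76.8% in either direction). Leaving out 1 library gave 3 calls without either Aβ-treated library and 5 without either control library, and Rb1cc1, Map1lc3a and Bnip3 were called in all 4 of those fits. Fewer of all genes were also called in each of those fits. Rescaling to total reads left 3 higher and 1 lower among the 34, and 2949 higher and 1728 lower among all genes. Quantile normalization moved the median of all genes to -0.13 and that of the 34 to 0.04, with 3 higher and 3 lower, and 2371 higher and 2634 lower among all genes, against 2915 and 2110 without it. Removal of the GC and length trend gave a median of -0.12 for all genes and 0.00 for the 34, with 2 higher and 3 lower, and 2089 higher and 2576 lower among all genes. Markers of mural cells were lower in 8 of 9 (444 to 505 FPKM in the Aβ-treated cultures, against 4173 to 4651 FPKM in the Aβ control). Endothelial markers were higher in 7 of 10 (773 to 1061 FPKM in the treated cultures, against 276 to 343 FPKM in the control) and oligodendrocyte markers in 8 of 10 (192 to 346 FPKM in the treated cultures, against 38.2 to 52.7 FPKM in the control). Microglia markers were higher in 6 and lower in 2 of 15 (5076 to 6729 FPKM in the treated cultures, against 2430.4 to 4025 FPKM in the control). Astrocyte markers were higher in 3 and lower in 1 of 12 (198 to 348 FPKM in the treated cultures, against 199 to 205 FPKM in the control). Fibroblast markers were higher in 1 and lower in 3 of 8 (919 to 1347 FPKM in the treated cultures, against 1698 to 1846 FPKM in the control), and neuron markers higher in 1 and lower in 2 of 5 (49.6 to 58.1 FPKM in the treated cultures, against 98.0 to 126 FPKM in the control). Their part in these results was not tested.

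**Figure D1:**
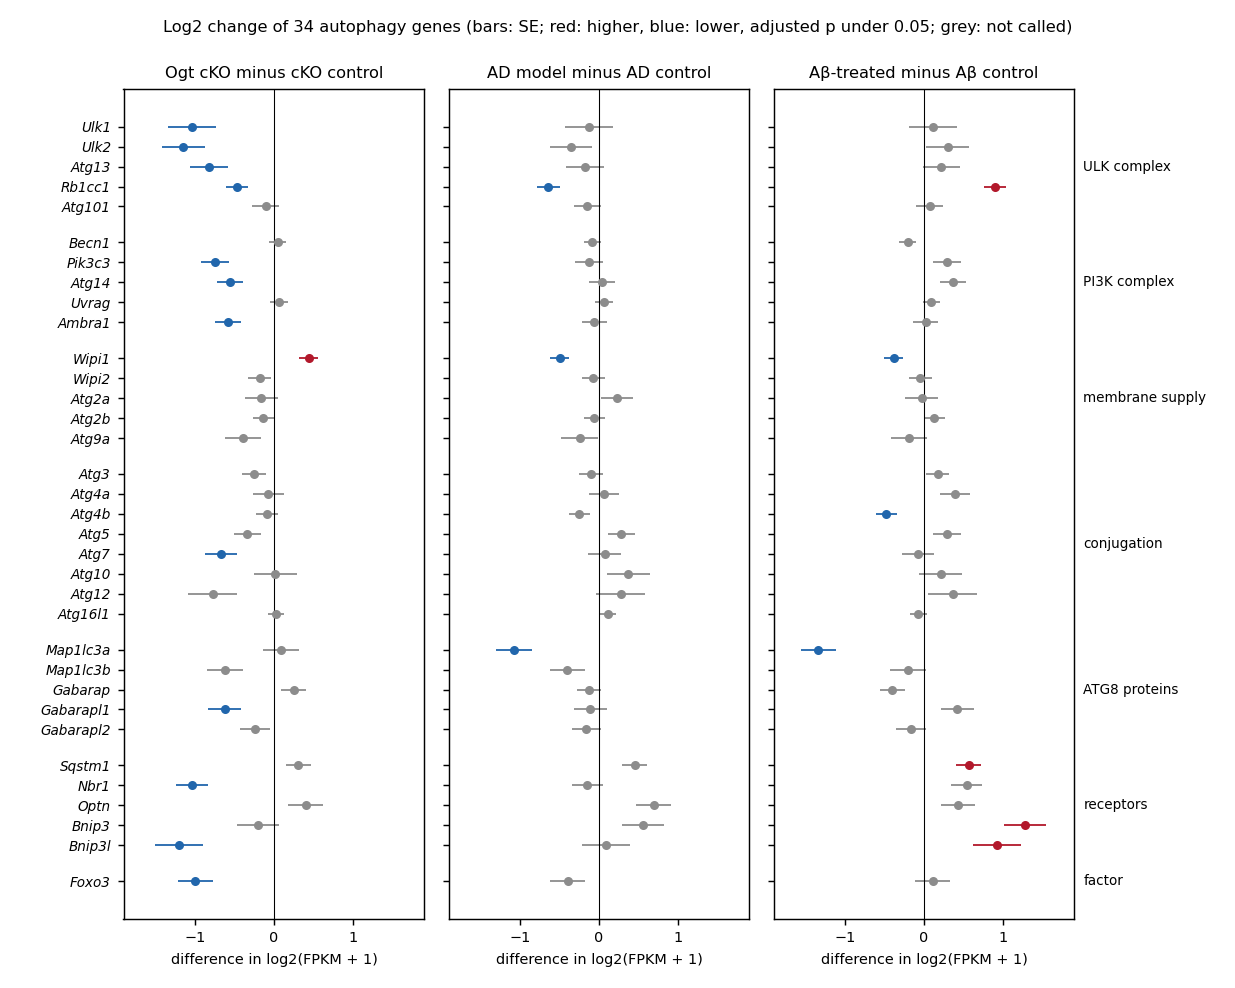
Differences in mean log2(FPKM + 1) for the 34 autophagy genes, 1 row per gene grouped by role, in the Ogt cKO minus the cKO control (left), the AD model minus the AD control (middle) and the Aβ-treated cultures minus the Aβ control (right). Points are limma estimates, horizontal bars are standard errors, red marks genes called higher, blue lower and grey not called; blue points are 12, 3 and 3 from left to right, and red points 1, 0 and 4.

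Of the 5 ULK complex genes, 4 fell in the Ogt cKO, with a median log2 change of -0.82 over the 5. Ulk1, the kinase that starts autophagosome formation, stood at 9.04 and 8.41 FPKM in the Ogt cKO, against 18.1 and 19.6 FPKM in the cKO control. The groups were apart, and the mean was 2.16-fold lower in the Ogt cKO (log2 change -1.03 ± 0.30, adjusted p = 0.025). Its relative Ulk2 was at 8.04 and 8.74 FPKM in the Ogt cKO, against 20.4 and 19.2 FPKM in the cKO control, again without overlap (log2 change -1.15 ± 0.27, adjusted p = 0.011). Atg13, the adaptor through which nutrient signals reach the kinase, was at 10.4 and 10.5 FPKM in the Ogt cKO, against 17.7 and 20.8 FPKM in the cKO control (log2 change -0.82 ± 0.23, adjusted p = 0.023). The scaffold gene Rb1cc1 was at 0.788 and 0.598 FPKM in the Ogt cKO, against 1.26 and 1.42 FPKM in the cKO control (log2 change -0.47 ± 0.14, adjusted p = 0.027). Both Ogt cKO libraries were below both controls for all 4. This held for 42.2% of all genes, and 19.8% of all genes were called lower. The fifth member, Atg101, which stabilizes Atg13, was not called (log2 change -0.10 ± 0.17, adjusted p = 0.64). Of these calls, Ulk2 remained without Ogt cKO library 2 only, and Ulk1, Atg13 and Rb1cc1 were lost on leaving out any 1 of the 4 libraries.

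The cKO control libraries held the highest levels of much of this group. For 10 of the 12 genes that fell, the exceptions being Rb1cc1 and Bnip3l, both cKO control libraries exceeded all 10 other libraries, which was so for 40.1% of the 2769 genes called lower in the Ogt cKO. Ulk1 in the Aβ control was at 10.1 and 9.07 FPKM and Ulk2 at 6.22 and 9.57 FPKM, close to the Ogt cKO libraries. Those cultures differ in age and experiment, so no test was made across them.

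Ulk1 in the AD experiment was at 8.14 and 15.8 FPKM in the AD model, against 9.20 and 16.9 FPKM in the AD control (log2 change -0.13 ± 0.30, adjusted p = 0.83). The groups interleaved, since the second library of each was the higher, and Ulk2 and Atg13 overlapped in the same way. For Ulk1, Ulk2 and Atg13 each AD model library was below the control library of the same number. With the replicate block none of them was called. With Aβ, Ulk1 was at 9.78 and 11.2 FPKM in the Aβ-treated cultures, against 10.1 and 9.07 FPKM in the Aβ control and was not called (log2 change 0.12 ± 0.30, adjusted p = 0.79). Rb1cc1 was the member of this complex that changed in the other experiments, in opposite directions. It was at 2.87 and 2.76 FPKM in the AD model, against 4.36 and 5.57 FPKM in the AD control (log2 change -0.64 ± 0.14, adjusted p = 0.014), and at 2.21 and 2.05 FPKM in the Aβ-treated cultures, against 0.741 and 0.623 FPKM in the Aβ control (log2 change 0.90 ± 0.14, adjusted p = 0.0016). Neither comparison had overlap, and the AD call was lost without AD control library 2 (adjusted p = 0.062). The gene has the longest summed exons of the 34, 14690 bases, and after removal of a fitted trend with gene length and GC content its calls in the Ogt cKO (log2 change -0.09, adjusted p = 0.67) and with Aβ (0.09, adjusted p = 0.69) were lost.

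**Figure D2:**
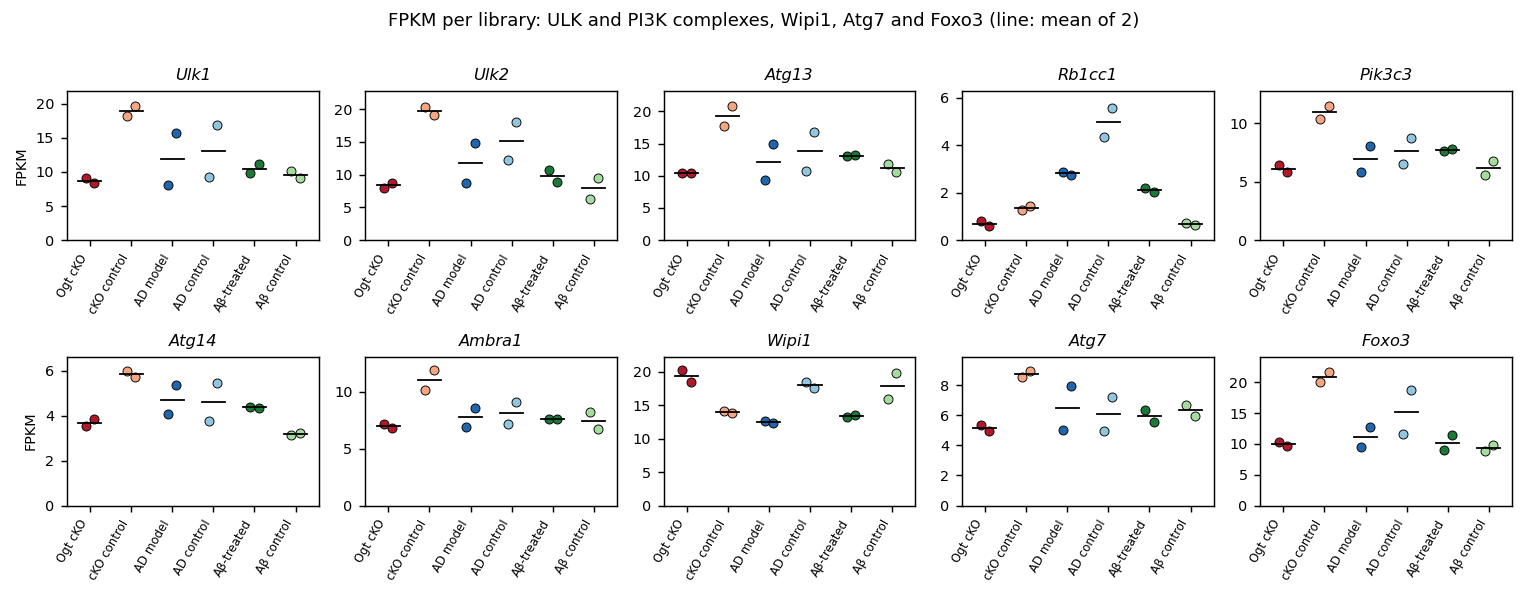
FPKM of each library for 10 genes of the ULK and lipid kinase complexes, Wipi1, Atg7 and Foxo3, with the 6 groups along the horizontal axis; each point is 1 library and the line is the mean of 2. All 10 were called in the Ogt cKO, and among these the cKO control stands above the Ogt cKO except for Wipi1. Atg101, Becn1 and Uvrag of the same complexes were not called and are not drawn. Their means were 23.5, 14.3 and 6.18 FPKM in the Ogt cKO, against 25.3, 13.8 and 5.87 FPKM in the cKO control. The AD model and AD control points are spread apart for Ulk1 (8.14 and 15.8 FPKM in the AD model, 9.20 and 16.9 FPKM in the AD control).

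Among the 5 nucleation genes, 3 fell in the Ogt cKO (median log2 change -0.55 over the 5) and 0 were called in the AD model or with Aβ, where 0 had an unadjusted p under 0.05 and the read-based voom fit also called 0. Pik3c3 encodes Vps34, the lipid kinase itself. It was at 6.41 and 5.83 FPKM in the Ogt cKO, against 10.3 and 11.5 FPKM in the cKO control (log2 change -0.74 ± 0.18, adjusted p = 0.012). Atg14, which directs the kinase to autophagosomes, was at 3.52 and 3.84 FPKM in the Ogt cKO, against 5.99 and 5.72 FPKM in the cKO control (log2 change -0.55 ± 0.17, adjusted p = 0.028). Ambra1, which links the kinase complex to the ULK complex, was at 7.20 and 6.82 FPKM in the Ogt cKO, against 10.1 and 11.9 FPKM in the cKO control (log2 change -0.58 ± 0.16, adjusted p = 0.019). All 3 lacked overlap, and each call was lost without Ogt cKO library 1, Ogt cKO library 2 or cKO control library 2, that of Atg14 also without cKO control library 1. Becn1, the beclin subunit, was at 14.6 and 13.9 FPKM in the Ogt cKO, against 13.3 and 14.2 FPKM in the cKO control, with overlapping groups (log2 change 0.05 ± 0.11, adjusted p = 0.74). Becn1 in the AD experiment was at 10.5 and 11.8 FPKM in the AD model, against 11.4 and 12.3 FPKM in the AD control (log2 change -0.08 ± 0.11, adjusted p = 0.68), and with Aβ at 12.7 and 13.0 FPKM in the Aβ-treated cultures, against 15.4 and 14.5 FPKM in the Aβ control (log2 change -0.21 ± 0.11, adjusted p = 0.16). The Aβ-treated libraries lay below both controls, a difference that did not pass the test. Uvrag, a subunit of the alternative complex, was not called in any of the 3.

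Wipi1, which binds the lipid made by Vps34, was the only membrane gene called in any experiment, and it went up in one and down in the others. It was at 20.3 and 18.4 FPKM in the Ogt cKO, against 14.1 and 13.9 FPKM in the cKO control (log2 change 0.44 ± 0.12, adjusted p = 0.022). It was at 12.6 and 12.3 FPKM in the AD model, against 18.5 and 17.6 FPKM in the AD control (log2 change -0.50 ± 0.12, adjusted p = 0.024). With Aβ it was at 13.2 and 13.6 FPKM in the Aβ-treated cultures, against 15.9 and 19.9 FPKM in the Aβ control (log2 change -0.38 ± 0.12, adjusted p = 0.039). None of the 3 comparisons overlapped, so the 2 Ogt cKO libraries were above their controls while the AD model and Aβ-treated libraries were below theirs. The Ogt cKO call depended on scaling: rescaled to total reads its log2 change was 0.21 (adjusted p = 0.22) and on quantile-normalized values 0.32 (adjusted p = 0.066). That call was lost without any 1 of its 4 libraries (adjusted p 0.063 to 0.14). The Aβ call was lost when values were rescaled to total reads (adjusted p = 0.091). With the libraries of 1 experiment alone, the Aβ call (adjusted p = 0.084) and the AD call (adjusted p = 0.27) were both lost. The AD call remained without AD control library 2 alone, and the Aβ call without Aβ control library 1 alone. Wipi2, the lipid transfer genes Atg2a and Atg2b, and Atg9a, whose vesicles seed the membrane, were not called in any comparison, with log2 changes of -0.39 to 0.23. Genes on the opposite strand overlap a pair of these: Gskip held reads equal to 89.1% of those of Atg2b, and Ankzf1 to 50.9% of those of Atg9a, and since no strand setting is given their reads cannot be told apart. Gskip fell with Aβ (log2 change -0.46, adjusted p = 0.034) and Ankzf1 fell in the Ogt cKO (-0.58, adjusted p = 0.011).

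The 8 conjugation genes contributed 1 call in the Ogt cKO, 1 with Aβ and 0 in the AD model, where 0 had an unadjusted p under 0.05 and the voom fit also called 0. Atg7 encodes the activating enzyme shared by both conjugation systems. It was at 5.36 and 4.92 FPKM in the Ogt cKO, against 8.57 and 8.97 FPKM in the cKO control, without overlap (log2 change -0.67 ± 0.21, adjusted p = 0.03), and this call was lost on leaving out any 1 library. Atg7 in the AD experiment was at 5.05 and 7.97 FPKM in the AD model, against 4.97 and 7.22 FPKM in the AD control and with Aβ at 6.32 and 5.56 FPKM in the Aβ-treated cultures, against 6.71 and 5.93 FPKM in the Aβ control, overlapping in both (log2 change 0.07 ± 0.21, adjusted p = 0.86, and log2 change -0.08 ± 0.21, adjusted p = 0.8). Atg4b, the protease that trims ATG8 proteins and releases them from membranes, fell with Aβ. It was at 7.54 and 7.53 FPKM in the Aβ-treated cultures, against 12.2 and 9.64 FPKM in the Aβ control (log2 change -0.48 ± 0.13, adjusted p = 0.023). Both treated libraries were below both controls, and the call remained without control library 2 but was lost without any other 1 library of the 4. Thap4, on the opposite strand, held reads equal to 33.0% of those of Atg4b and was not called (log2 change -0.27, adjusted p = 0.14). The counting strand is not given in the sources used here, so reads of the pair may be mixed.

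Atg5, joined to Atg12 to form the scaffold that places ATG8 on lipid, was not called anywhere. It was at 14.8 and 13.8 FPKM in the Ogt cKO, against 18.8 and 17.9 FPKM in the cKO control (log2 change -0.34 ± 0.17, adjusted p = 0.14). For AD it was at 14.7 and 21.2 FPKM in the AD model, against 13.7 and 15.1 FPKM in the AD control (log2 change 0.28 ± 0.17, adjusted p = 0.33), and with Aβ at 18.6 and 15.1 FPKM in the Aβ-treated cultures, against 12.8 and 14.3 FPKM in the Aβ control (log2 change 0.29 ± 0.17, adjusted p = 0.21). Only the AD groups overlapped. Atg12 was lower in both Ogt cKO libraries but missed the threshold (log2 change -0.77 ± 0.31, adjusted p = 0.071). The remaining members, Atg3, Atg4a, Atg10 and Atg16l1, were not called, with log2 changes of -0.25 to 0.39 over the 3 comparisons.

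ATG8 proteins coat the membrane and are the anchor for receptors. Map1lc3a showed the largest fall of any of the 34 genes in both the AD and Aβ experiments. It was at 37.2 and 66.6 FPKM in the AD model, against 98.7 and 113 FPKM in the AD control, a mean 2.04-fold lower (log2 change -1.07 ± 0.23, adjusted p = 0.012). It was at 47.4 and 48.0 FPKM in the Aβ-treated cultures, against 126 and 118 FPKM in the Aβ control, a mean 2.55-fold lower (log2 change -1.33 ± 0.23, adjusted p = 0.0023). Neither comparison overlapped. The gene was not called in the first experiment, at 106 and 101 FPKM in the Ogt cKO, against 96.7 and 98.1 FPKM in the cKO control (log2 change 0.09 ± 0.23, adjusted p = 0.77). With Aβ the call was kept without each library in turn (adjusted p 0.013 to 0.023), and in the AD model it was lost without AD control library 2 (adjusted p = 0.053). As a share of the summed FPKM of the 5 ATG8 genes, Map1lc3a averaged 16.1% in the AD model, against 26.4% in the AD control. In the Aβ-treated cultures it averaged 13.4%, against 25.7% in the Aβ control, and in the Ogt cKO 24.0%, against 21.7% in the cKO control.

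Gabarapl1, a close relative of Gabarap, fell in the Ogt cKO. It was at 62.6 and 55.7 FPKM in the Ogt cKO, against 87.8 and 95.4 FPKM in the cKO control (log2 change -0.62 ± 0.21, adjusted p = 0.038), and this fall was lost without any 1 library. With Aβ it was at 83.1 and 77.3 FPKM in the Aβ-treated cultures, against 63.1 and 56.4 FPKM in the Aβ control, both treated libraries being higher without a call (log2 change 0.42 ± 0.21, adjusted p = 0.14). Levels in the AD experiment were 46.5 and 71.5 FPKM in the AD model, against 54.9 and 70.7 FPKM in the AD control, with overlap (log2 change -0.11 ± 0.21, adjusted p = 0.78). Its share of ATG8 FPKM averaged 13.7% in the Ogt cKO and 20.4% in the cKO control, 18.5% in the AD model and 15.6% in the AD control, and 22.5% in the Aβ-treated cultures and 12.6% in the Aβ control. Map1lc3b, the form most used as a marker of autophagosomes, was not called. It was at 33.2 and 30.8 FPKM in the Ogt cKO, against 48.3 and 51.2 FPKM in the cKO control, the groups apart and the adjusted p just over the threshold (log2 change -0.62 ± 0.23, adjusted p = 0.053). The AD values were 23.8 and 35.0 FPKM in the AD model, against 30.3 and 48.5 FPKM in the AD control (log2 change -0.40 ± 0.23, adjusted p = 0.29), and with Aβ at 32.2 and 32.0 FPKM in the Aβ-treated cultures, against 38.2 and 35.9 FPKM in the Aβ control (log2 change -0.20 ± 0.23, adjusted p = 0.52). Zcchc14, antisense to it, held reads equal to 29.8% of its own and fell in the Ogt cKO (log2 change -0.52, adjusted p = 0.017) and in the AD model (-0.51, adjusted p = 0.036), with 0.06 for Aβ (adjusted p = 0.75). Gabarap and Gabarapl2 were not called, with log2 changes of -0.40 to 0.25.

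The receptors had the highest median log2 change of the roles in the AD model (0.45) and with Aβ (0.56), and their median in the Ogt cKO was -0.20. With Aβ, both treated libraries lay above both controls for all 5, and 3 passed the test. Of all genes, 36.6% lay above in that way and 20.8% were called higher. Bnip3, a mitophagy receptor known to be induced by hypoxia, had the largest rise of the receptors. It was at 22.9 and 27.8 FPKM in the Aβ-treated cultures, against 10.6 and 9.10 FPKM in the Aβ control, a mean 2.58-fold higher (log2 change 1.28 ± 0.27, adjusted p = 0.0062), and the call was kept without each library (adjusted p 0.024 to 0.045). Levels in the AD experiment were 19.3 and 22.4 FPKM in the AD model, against 9.84 and 19.2 FPKM in the AD control, above both controls only narrowly (log2 change 0.56 ± 0.27, adjusted p = 0.21). The first experiment had it at 9.77 and 9.96 FPKM in the Ogt cKO, against 13.2 and 9.95 FPKM in the cKO control, with overlap (log2 change -0.20 ± 0.27, adjusted p = 0.56).

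Bnip3l, or Nix, is known for clearing mitochondria from maturing red cells and fell in the Ogt cKO. It was at 18.2 and 18.9 FPKM in the Ogt cKO, against 43.8 and 43.7 FPKM in the cKO control, a mean 2.36-fold lower (log2 change -1.20 ± 0.30, adjusted p = 0.015). With Aβ it was at 31.9 and 30.7 FPKM in the Aβ-treated cultures, against 14.1 and 18.2 FPKM in the Aβ control (log2 change 0.92 ± 0.30, adjusted p = 0.043). Neither comparison overlapped, and both calls were lost on leaving out any 1 library. The Aβ call was also lost with no filter on low values, rescaled to total reads and on quantile-normalized values (adjusted p 0.053 to 0.093), and after removal of the GC and length trend, where the log2 change was 0.44 (adjusted p = 0.28). Its AD values were 26.4 and 40.2 FPKM in the AD model, against 21.3 and 43.9 FPKM in the AD control, with overlap (log2 change 0.09 ± 0.30, adjusted p = 0.89). A processed copy of the gene, Bnip3l-ps, was at 5.00 to 11.4 FPKM over the 12 libraries and also fell in the Ogt cKO (log2 change -0.86, adjusted p = 0.035), so Bnip3l values are uncertain where reads were shared.

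Sqstm1 rose with Aβ. It was at 320.2 and 304 FPKM in the Aβ-treated cultures, against 228 and 195 FPKM in the Aβ control, a mean 1.48-fold higher (log2 change 0.56 ± 0.16, adjusted p = 0.021). The groups were apart, and the call remained without Aβ control library 1 but was lost without any other 1 library. Sqstm1 was also above both controls in the other experiments without a call: 227 and 285 FPKM in the AD model, against 193 and 179 FPKM in the AD control (log2 change 0.45 ± 0.16, adjusted p = 0.084), and 237 and 220.4 FPKM in the Ogt cKO, against 187 and 181 FPKM in the cKO control (log2 change 0.31 ± 0.16, adjusted p = 0.13). Nbr1, a receptor related to Sqstm1, fell in the Ogt cKO. It was at 15.8 and 16.2 FPKM in the Ogt cKO, against 32.3 and 35.3 FPKM in the cKO control (log2 change -1.03 ± 0.20, adjusted p = 0.0052), the lowest adjusted p of the 34 genes in that experiment. The AD experiment had Nbr1 at 18.2 and 25.9 FPKM in the AD model, against 20.2 and 28.7 FPKM in the AD control, overlapping (log2 change -0.15 ± 0.20, adjusted p = 0.69), and with Aβ at 22.6 and 21.6 FPKM in the Aβ-treated cultures, against 13.7 and 16.1 FPKM in the Aβ control, higher but not called (log2 change 0.54 ± 0.20, adjusted p = 0.061).

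Optn, which acts in mitophagy and bacterial clearance, was not called in any experiment with all 12 libraries fitted together without a replicate block, although its groups never overlapped. Groups did not overlap for 83.9% of all genes in the Ogt cKO experiment, 44.8% in the AD experiment and 76.8% with Aβ. It was at 5.95 and 5.61 FPKM in the Ogt cKO, against 4.65 and 3.67 FPKM in the cKO control (log2 change 0.40 ± 0.22, adjusted p = 0.16). Its AD values were 5.83 and 9.08 FPKM in the AD model, against 3.36 and 5.07 FPKM in the AD control (log2 change 0.69 ± 0.22, adjusted p = 0.061), and with Aβ at 6.89 and 7.70 FPKM in the Aβ-treated cultures, against 4.79 and 5.52 FPKM in the Aβ control (log2 change 0.43 ± 0.22, adjusted p = 0.15). In each experiment the Ogt cKO, AD model or Aβ-treated libraries were both above their controls. With the 4 libraries of the Ogt cKO experiment alone it was called higher (adjusted p = 0.047).

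**Figure D3:**
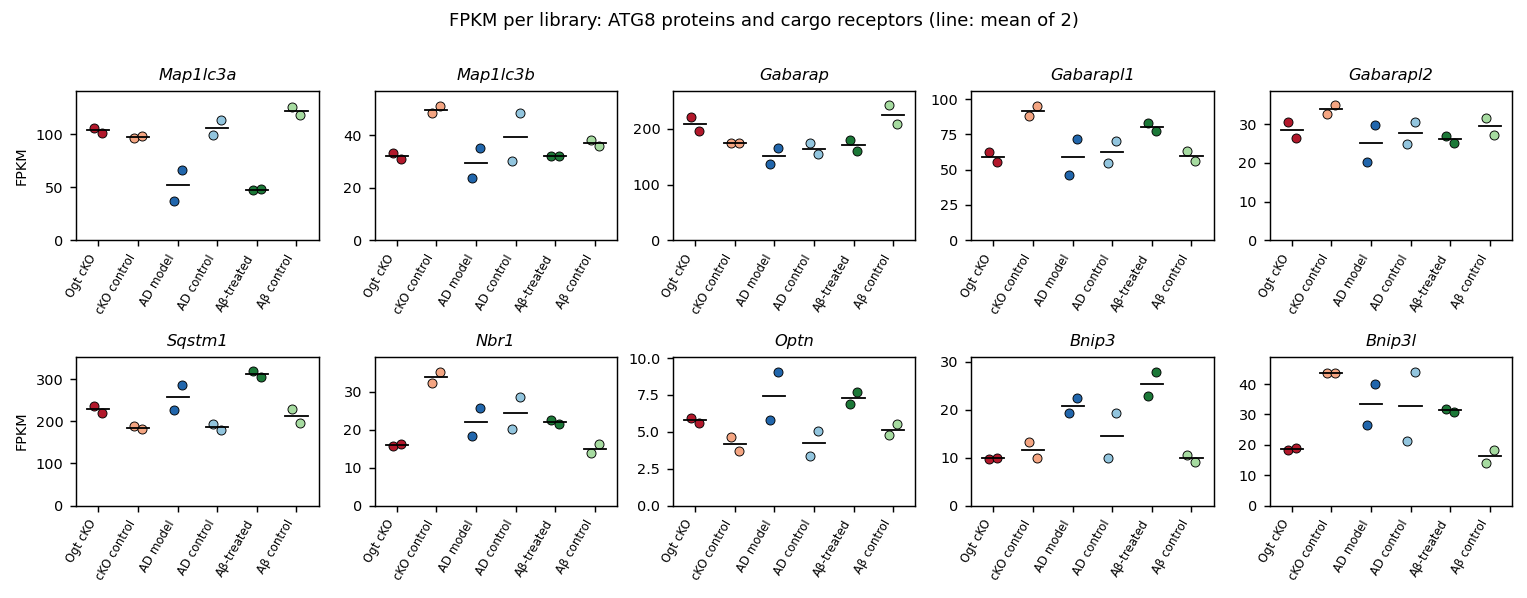
FPKM of each library for the 5 ATG8 genes (upper row) and the 5 cargo receptors (lower row), with the 6 groups along the horizontal axis; each point is 1 library and the line is the mean of 2. Map1lc3a is at 47.4 and 48.0 FPKM in the Aβ-treated cultures, below the Aβ control, and all 5 receptors are higher in the Aβ-treated cultures than in the Aβ control.

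Foxo3, a transcription factor that drives several autophagy genes in muscle, fell in the Ogt cKO. It was at 10.3 and 9.66 FPKM in the Ogt cKO, against 20.0 and 21.7 FPKM in the cKO control, without overlap and 2.09-fold lower in the mean (log2 change -0.99 ± 0.22, adjusted p = 0.0092). The call was lost without Ogt cKO library 2 or cKO control library 2. Its AD values were 9.46 and 12.8 FPKM in the AD model, against 11.6 and 18.8 FPKM in the AD control (log2 change -0.39 ± 0.22, adjusted p = 0.28), and with Aβ at 8.99 and 11.4 FPKM in the Aβ-treated cultures, against 8.83 and 9.81 FPKM in the Aβ control (log2 change 0.11 ± 0.22, adjusted p = 0.72). Both of these overlapped.

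The 3 experiments have separate control libraries, so the effects could be compared with an interaction term. Between the Ogt cKO and Aβ effects, 15 of the 34 genes differed, 3 toward a higher log2 change in the Ogt cKO and 12 toward a lower one (8.82% and 35.3%, against 25.7% and 26.6% of all genes, and 52.3% in either direction). Bnip3l had the largest difference (-2.12, adjusted p = 0.0039), followed by Nbr1 (-1.57, adjusted p = 0.0022) and Bnip3 (-1.48, adjusted p = 0.010). Wipi1 (0.82, adjusted p = 0.0048), Map1lc3a (1.42, adjusted p = 0.0061) and Gabarap (0.65, adjusted p = 0.034) differed the other way. Between the Ogt cKO and AD effects 3 genes differed, 2 higher and 1 lower, against 13.7% and 11.9% of all genes (25.6% in either direction). These were Wipi1 (0.93, adjusted p = 0.0071), Map1lc3a (1.16, adjusted p = 0.030) and Nbr1 (-0.89, adjusted p = 0.046). Of the 11 other settings, 5 ended the Map1lc3a call and 3 the Nbr1 call, and none ended that of Wipi1. Between the AD and Aβ effects only Rb1cc1 differed (-1.53, adjusted p = 0.0076), against 1.52% of all genes higher and 4.62% lower (6.14% in either direction). After removal of the GC and length trend that difference was -0.72 and was not called (adjusted p = 0.11), and the Rb1cc1 difference between the Ogt cKO and Aβ was -0.17 (adjusted p = 0.54). The count for Ogt cKO and AD rose to 14 without AD model library 1 and 13 without AD control library 2, and was 1 without any 1 of the 4 Ogt cKO and cKO control libraries or AD control library 1. Among all genes the count likewise rose in the first 2 of those fits and fell in the others named. Rescaling to total reads gave 1 higher and 3 lower for Ogt cKO and AD, and 2 higher and 16 lower for Ogt cKO and Aβ. Among all genes it gave 1243 higher and 2136 lower, and 2616 higher and 4510 lower, in that order. It moved the medians of all genes to -0.21 and -0.29, and those of the 34 to -0.50 and -0.73. As a description across the 34 genes, which are not independent, Pearson's r of log2 changes was 0.56 between AD and Aβ (0.69 over all genes), -0.34 between Ogt cKO and Aβ (-0.23) and 0.18 between Ogt cKO and AD (0.10).

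The AD experiment differed from the others in how its replicates compared. In the AD model the second library was the higher for 31 of the 34 genes, and in the AD control for 30 of 34, while over all genes tested the second library was higher in 50.9% and 49%. In the Ogt cKO, cKO control, Aβ-treated and Aβ control groups the count was 10, 16, 16 and 13 of 34. The median difference between the replicates over the 34 genes was 1.37-fold in the AD model and 1.27-fold in the AD control, and reached 1.95-fold for Atg12 in the AD model and 2.06-fold for Bnip3l in the AD control. The median absolute log2 difference was 0.41 in the AD model for the 34 genes and 0.29 for all genes, and in the AD control 0.30 for the 34 genes and 0.29 for all genes. Mural markers summed to 799 and 214 FPKM in AD model libraries 1 and 2, and to 4316 and 1798 FPKM in AD control libraries 1 and 2. Endothelial markers were at 433 and 118 FPKM in the AD model, and 221 and 89.0 FPKM in the AD control, whereas microglia markers were higher in the second library of each (3731 and 6034 FPKM in the model, 1195 and 1739 FPKM in the control). The part of these markers in the autophagy gene levels was not tested.

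**Figure D4:**
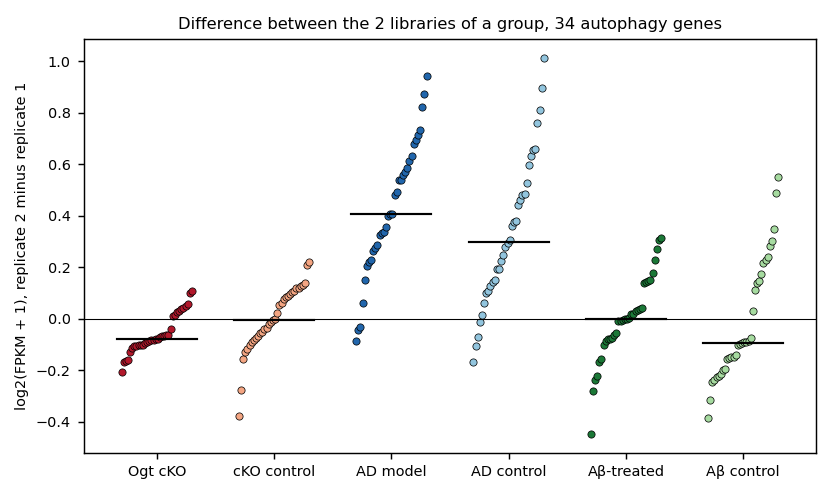
Difference in log2(FPKM + 1) between library 2 and library 1 of each of the 6 groups for the 34 autophagy genes; each point is 1 gene, sorted within the group, and the line is the median. The points lie above 0 for 31 genes in the AD model and 30 in the AD control, and for 10 to 16 genes in the other 4 groups.

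Other genes of the pathway were read as lists. Over all genes tested, 22.6% were called higher and 19.8% lower in the Ogt cKO. The shares were 9.8% and 7.27% in the AD model, and 20.8% and 15.1% with Aβ. Of 14 further core genes tested, 7 fell and 1 rose in the Ogt cKO (median log2 change -0.48), 0 were called in the AD model (0.03, with 4 at an unadjusted p under 0.05), and 1 fell and 3 rose with Aβ (0.06). Rubcn, a brake on the Vps34 complex, averaged 8.21 FPKM in the Ogt cKO, against 20.4 FPKM in the cKO control (log2 change -1.20, adjusted p = 0.0019). With Aβ, Tmem41b, a lipid scramblase of the membrane, averaged 6.12 FPKM in the Aβ-treated cultures, against 10.2 FPKM in the Aβ control (log2 change -0.66, adjusted p = 0.0025). Of 13 fusion and maturation genes, 4 were lower in the Ogt cKO and none higher (median -0.33), led by Plekhm1, which tethers autophagosomes to lysosomes (log2 change -1.46, adjusted p = 0.0065), and 0 were called in the AD model (0.16) or with Aβ (-0.01), where 2 each had an unadjusted p under 0.05.

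Of 15 other receptor and mitophagy genes, 5 fell and 2 rose in the Ogt cKO (-0.48), 1 rose and none fell in the AD model (-0.08), and 2 fell and 3 rose with Aβ (-0.00). Over all genes, 42.3%, 17.1% and 35.9% were called in either direction, in that order. Pink1, the kinase that marks damaged mitochondria, averaged 23.0 FPKM in the Ogt cKO, against 99.5 FPKM in the cKO control (log2 change -2.06, adjusted p = 0.0047). Tbk1, which phosphorylates Optn and Sqstm1, averaged 17.0 FPKM in the AD model, against 9.69 FPKM in the AD control (log2 change 0.75, adjusted p = 0.047), and 14.2 FPKM in the Aβ-treated cultures, against 5.58 FPKM in the Aβ control (log2 change 1.23, adjusted p = 0.003). With Aβ the receptor genes Tax1bp1 (log2 change 1.62, adjusted p = 7.4e-04) and Sec62 (log2 change 1.88, adjusted p = 2.2e-04) also rose.

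Upstream regulators were called in each experiment, as were 42.3% of all genes in the Ogt cKO, 17.1% in the AD model and 35.9% with Aβ. Of 20 mTORC1 and AMPK genes, 5 fell and 2 rose in the Ogt cKO (-0.15), 3 fell in the AD model (-0.17), and 5 fell and 1 rose with Aβ (-0.08). Sesn1, an inhibitor of mTORC1 signalling, averaged 3.78 FPKM in the Ogt cKO, against 24.9 FPKM in the cKO control (log2 change -2.44, adjusted p = 0.0015). Akt1s1 of the same list rose, averaging 69.7 FPKM in the Ogt cKO, against 35.4 FPKM in the cKO control (log2 change 0.96, adjusted p = 0.0045). Prkab2, an AMPK subunit gene, averaged 2.75 FPKM in the AD model, against 8.32 FPKM in the AD control (log2 change -1.31, adjusted p = 5.7e-04), and 2.14 FPKM in the Aβ-treated cultures, against 6.98 FPKM in the Aβ control (log2 change -1.34, adjusted p = 2.9e-04). Of 10 TFEB-family and FOXO genes, 7 were lower and none higher in the Ogt cKO (-0.69), 2 higher in the AD model (0.39) and 5 higher with Aβ (0.63), with none lower in either. Foxo1 averaged 3.10 FPKM in the Ogt cKO, against 7.17 FPKM in the cKO control (log2 change -0.99, adjusted p = 0.0033), and Fnip2, a folliculin partner, averaged 12.1 FPKM in the AD model, against 3.15 FPKM in the AD control (log2 change 1.64, adjusted p = 7.1e-04). Of 20 hypoxia response genes, 5 rose and 4 fell in the Ogt cKO (-0.12), 5 rose in the AD model (0.33) and 9 rose with Aβ (0.67), with none lower in the last 2. Hif1a, which encodes an oxygen-regulated factor, averaged 48.7 FPKM in the Aβ-treated cultures, against 8.34 FPKM in the Aβ control (log2 change 2.43, adjusted p = 6.0e-05). These are RNA levels, and a link to the level of Bnip3 was not tested. The NRF2 list of 11 genes, a response to which Sqstm1 is linked, held Nfe2l2, the gene of NRF2, and its regulator Keap1 beside target genes. In the Ogt cKO 2 of the 11 rose and 1, Keap1, fell (-0.11). In the AD model 7 rose (1.25), and with Aβ 5 rose, Nfe2l2 among them (0.85). Nqo1 averaged 97.6 FPKM in the Ogt cKO, against 5.31 FPKM in the cKO control (log2 change 3.94, adjusted p = 0.0013). Hmox1 averaged 706 FPKM in the AD model, against 182 FPKM in the AD control (log2 change 1.99, adjusted p = 0.0013). Gclm averaged 33.7 FPKM in the Aβ-treated cultures, against 11.5 FPKM in the Aβ control (log2 change 1.45, adjusted p = 8.9e-04). These lists were chosen with results of these data known, and their counts are a description beside the background shares above.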

How the data were processed

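RNA-seq of 12 mouse culture libraries was deposited by the authors as 1 table of FPKM values per gene, aligned to mm10 per the submitters' processing notes; the sources used here give no aligner, counter or strand setting. FPKM times gene length and library size gave whole reads for 100% of values in each library (tolerance 0.1), 16418852 to 18705309 reads per library. A count of 3 reads on a gene of 1 kb equals 0.145 to 0.191 FPKM, for counting error only. Genes at 1 FPKM or more in at least 2 libraries (14014) were tested with limma 3.58.1 in R 4.3.3 on log2(FPKM + 1), with 1 mean per group, all 12 libraries, a trended prior variance and Benjamini-Hochberg adjustment at 0.05; the p-values are two-sided. Each experiment was compared with its own control, and effects were compared by contrasts between experiments. The fit was also run on simulated reads with equal, independent noise in every library. That run does not cover unequal or shared replicate differences such as those of the AD experiment. Alternatives were other pseudocounts (0.1 and 0.5), filters (none, and 5 FPKM), scalings, voom on the recovered reads, a replicate block, fits of the compared libraries alone, leaving out each library, and, chosen after seeing the data, removal of a trend with GC content and gene length. The 34 genes, the other lists and the marker lists were chosen with earlier results of these data known. The text names every member called in at least 1 comparison, and Ulk1, Becn1, Atg5, Atg7, Map1lc3b, Gabarapl1, Sqstm1, Optn, Bnip3 and Foxo3 whatever their values; from each other list it names some of the 3 members with the smallest p per comparison. Figures were drawn with Python 3.11.15 and matplotlib 3.10.9.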

Additional observations from a re-analysis of the deposited data

Results flagged for a closer look

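The effects of 2 experiments differed by the test of the difference itself for the following autophagy genes; values are differences of log2 changes from limma with all libraries, adjusted p under 0.05 over 14014 genes. Between the Ogt cKO and AD model effects they were 1.16 for Map1lc3a, 0.93 for Wipi1 and -0.89 for Nbr1. Wipi1 rose in the Ogt cKO and fell in the AD model. Map1lc3a fell in the AD model and was not called in the Ogt cKO, and Nbr1 fell in the Ogt cKO and was not called in the AD model. Wipi1 was the one of these 3 that stayed past the threshold without each of the 8 libraries (highest adjusted p 0.039), and it was kept under all 11 other settings. Map1lc3a was lost under 5 of the 11 (adjusted p 0.067 to 0.25): no filter on low values, rescaling to total reads, quantile normalization, removal of the GC and length trend (0.60) and the 8 libraries alone. Nbr1 was lost under 3 (adjusted p 0.072 to 0.094): no filter, removal of the trend and the 8 libraries alone.

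Between the Ogt cKO and Aβ effects the initiation genes differed by -1.15 for Ulk1, -1.44 for Ulk2, -1.04 for Atg13 and -1.36 for Rb1cc1. The nucleation genes differed by -1.03 for Pik3c3, -0.92 for Atg14 and -0.60 for Ambra1, and Foxo3 by -1.11. The receptors differed by -2.12 for Bnip3l, -1.57 for Nbr1 and -1.48 for Bnip3. Among the ATG8 genes the difference was -1.04 for Gabarapl1, 1.42 for Map1lc3a and 0.65 for Gabarap, and for Wipi1 it was 0.82. Of these 15, Ulk2, Rb1cc1, Pik3c3, Atg14, Wipi1, Map1lc3a, Nbr1, Bnip3 and Bnip3l stayed past the threshold without each of the 8 libraries of the 2 experiments. Among these 9, Map1lc3a was lost on quantile-normalized values (0.80, adjusted p = 0.078) and after removal of the GC and length trend (0.67, adjusted p = 0.16), Rb1cc1 after removal of the trend (-0.17, adjusted p = 0.54) and Atg14 on quantile-normalized values (-0.64, adjusted p = 0.068). Ulk1 was lost without any 1 of the 8 libraries and under 5 of the 11 other settings. Of the 11, 4 ended the call of Gabarap, 3 that of Ambra1 and 1 that of Atg13, and none ended that of Gabarapl1 or Foxo3, each of which was kept in 4 of the 8 fits with 1 library left out. Atg13, Ambra1 and Gabarap were each kept in 1 of those 8.

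Between the AD model and Aβ effects the difference was -1.53 for Rb1cc1, which fell in the AD model and rose with Aβ. It stayed past the threshold without each of 8 libraries (highest adjusted p 0.039) and was lost after removal of the GC and length trend (-0.72, adjusted p = 0.11).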

How the results depend on the processing

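The starting counts were 13 calls in the Ogt cKO, 3 in the AD model and 7 with Aβ. Among all 14014 genes they were 5934, 2392 and 5025. With no filter on low values 7 Ogt cKO calls remained, and 4902 of all 30418 genes were called. With the 4 libraries of an experiment alone, 20 of the 34 genes were called in the Ogt cKO and 0 in the AD model. Among all genes those fits called 8704 and 278. Rescaling to total reads left 4 calls with Aβ, and 4677 among all genes. For the differences between experiments the starting counts were 3, 15 and 1 genes. Ogt cKO against AD gave 1 with no filter, 1 after removal of the GC and length trend and 1 with the 8 libraries alone. Among all genes those fits gave 2597, 3548 and 2078 calls, against 3593 at the start. AD against Aβ gave 0 at 5 FPKM and 0 after the trend was removed, and 531 and 485 among all genes. The 5 FPKM filter takes out Rb1cc1 itself in that comparison. Leaving out 1 library gave 1 to 4 calls in the Ogt cKO, 2 to 5 in the AD model, 3 to 5 with Aβ, 1 to 14 for Ogt cKO against AD (14 without AD model library 1 and 13 without AD control library 2), 9 to 12 for Ogt cKO against Aβ and 1 to 3 for AD against Aβ; the lone library is then assumed to vary like the other groups. Among all genes the calls in the Ogt cKO, with Aβ and for Ogt cKO against Aβ also fell in every fit with a library left out. Gabarap reversed in the difference of Ogt cKO and Aβ effects on quantile-normalized values (-0.17, adjusted p = 0.51). Same-numbered libraries deviated together in the AD experiment (correlation across genes 0.55) but not in the Ogt cKO (0.03) or Aβ (-0.17) experiments. The fit behind the starting counts takes no pairs and pools 1 spread per gene over all groups. This shared difference thus stays in the error of all 3 experiments, not of the AD experiment alone. A replicate block, which fits the library number, gave 16, 5 and 11 calls, and 11, 18 and 1 for the differences. Among all genes it gave 6789, 3058 and 6098 calls, and 4850, 8088 and 1273 for the differences. With the block, Optn was called higher in all 3 experiments (adjusted p = 0.028 in the Ogt cKO, 0.0086 in the AD model and 0.024 with Aβ). Of single-gene values under the other settings, 131 of 142 in the Ogt cKO, 29 of 32 in the AD model and 67 of 76 with Aβ kept their call; with 1 library left out it was 9 of 52, 7 of 12 and 15 of 28. Voom on recovered reads called the same 13, 3 and 7 genes. Quantile normalization moved the all-gene median with Aβ to -0.13. The cause of these changes was not tested for any setting. Depth did not limit detection of any member: the lowest value of the 34, 0.598 FPKM for Rb1cc1, was above the 0.145 to 0.191 FPKM that 3 reads give on a gene of 1 kb.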

Other observations

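Rb1cc1 differed most between the 3 control groups, which were not compared in any test because age and experiment differ. It was at 1.26 and 1.42 FPKM in the cKO control, 4.36 and 5.57 FPKM in the AD control and 0.741 and 0.623 FPKM in the Aβ control. The AD control libraries were the highest of the 12, and the AD model libraries, at 2.87 and 2.76 FPKM, were above every library of the other 2 experiments although they were below their own control.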
